A study of Mus musculus with 7 samples.

Results

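The insulin-like growth factor (IGF) system of granulosa cells was followed through 10 genes, the ligands Igf1 and Igf2, the receptors Igf1r and Igf2r, and the binding proteins Igfbp2 to Igfbp7. They were taken by symbol from a deposited table of 50095 genes, and each symbol matched 1 row. The 3 KO-labelled libraries carried the genotype Ezh2flox/flox; Cyp19-Cre and the 4 WT libraries Ezh2flox/+; Cyp19-Cre, so both groups carried Cre and at least one floxed Ezh2 allele. Cyp19-Cre is driven by the promoter of aromatase, a granulosa cell enzyme. All libraries came from primary ovarian granulosa cells of 3-week-old female mice primed with pregnant mare serum gonadotropin (5 IU) for 48 h and then given the ovulatory hormone hCG (5 IU). The time from the second hormone to collection and the number of animals behind a library are not given in the sources used here, so each p-value reflects no more than how far these samples differ, which may be technical. The labels call the KO treatment a knock down of EZH2, and WT4 bears the same treatment entry although its title and genotype are WT. It therefore stayed in WT, and 1 alternative omits it. The alternative with the replicate number as a block takes no group difference from WT4 either, as no KO-labelled library shares its number. Its log2 differences are those without WT4 (Igf1 at -0.74 in both). Ezh2 itself stood at 20.03, 17.8 and 26.1 FPKM in KO1, KO2 and KO3, against 20.5, 23.4, 25.2 and 25.3 FPKM in WT1 to WT4. The groups overlapped, and KO3 was the highest library. Ezh2 was not called in the limma fit described below (log2 difference -0.15, limma adjusted p = 0.432). A whole-gene value also counts exons outside the deleted part, but single exons were not tested. Every direction below follows the labels.

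IGF1 and IGF2 are secreted peptides that signal through the receptor tyrosine kinase encoded by Igf1r. The product of Igf2r does not signal in this way but carries IGF2 into the cell for breakdown in lysosomes. The classical binding proteins hold the ligands outside the cell and set how much reaches the receptor, while the product of Igfbp7 is a more distant relative of low affinity. In the mouse ovary Igf1 is made by granulosa cells of growing follicles and strengthens their response to follicle-stimulating hormone.

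In the KO-labelled libraries the transcripts of the ligand Igf1 and of the clearance receptor Igf2r were lower, and those of Igfbp7, Igfbp6 and Igfbp3 were higher. Igfbp7 averaged 107 ± 35.1 FPKM in KO-labelled and 30.5 ± 11.1 FPKM in WT libraries, and Igf1 averaged 11.4 ± 1.22 FPKM in KO-labelled and 19.6 ± 1.80 FPKM in WT libraries (SD, n = 3 and n = 4). FPKM divides the fragments of a gene by transcript length and by the depth of the library. The groups were compared by limma on log2(FPKM + 1), over the 13850 genes that averaged 1 FPKM or more, and a gene was called at a Benjamini-Hochberg adjusted p under 0.05. Of the 10 members 9 were tested, and 5 of these were called, 3 higher and 2 lower. Among all genes tested 24.6% were called, 7.91% higher and 16.7% lower. Higher genes were 32.1% of the calls, but 52.0% of them with median-of-ratios scaling and 17.7% with an equal sum of FPKM, while the members kept 3 higher and 2 lower under both. Igfbp3 reached the minimum mean only through its KO-labelled values and had to differ, so its call is a description. With a minimum mean of 5 FPKM 8 members were tested and 4 called. The median log2 difference was 0.31 over the 9 tested members and -0.08 over all genes tested. With the minimum mean of 5 FPKM, which left out Igfbp3, these medians were 0.02 over 8 members and -0.08 over all genes tested. KO-labelled and WT libraries did not overlap for 5 of the 9 tested members, Igfbp3 included, beside 36.3% of all genes tested. They also did not overlap for Igf2, which was not tested. The number of called members stood between 4 and 7 with any 1 library left out.

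**Figure D1:**
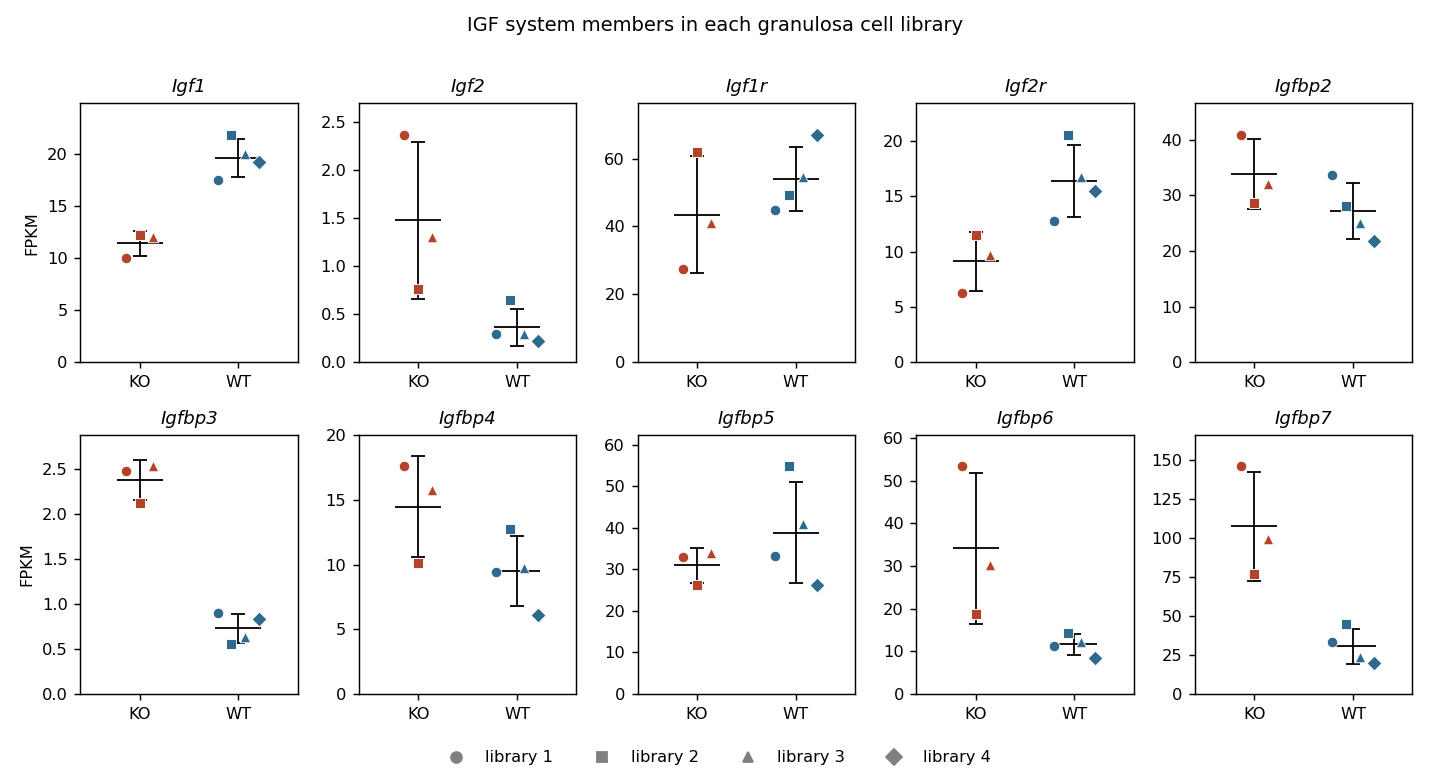
FPKM (vertical axis, from 0) of each member in the 3 KO-labelled (red, left) and 4 WT (blue, right) libraries, where marker shape gives the library number and black lines the mean ± SD. Igf1 and Igf2r were lower, and Igfbp3, Igfbp6, Igfbp7 and Igf2 higher, in every KO-labelled library than in every WT library.

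The proximal promoters of the 5 called members are shown because the genes moved in both directions. The windows run from 250 bases before to 50 after the start that RefSeq gives on GRCm38.p6, and a member may have other starts. They are chr5:77407996-77408295 (Igfbp7, minus strand), chr15:102143936-102144235 (Igfbp6, plus strand), chr11:7213874-7214173 (Igfbp3, minus strand), chr10:87860861-87861160 (Igf1, plus strand) and chr17:12769657-12769956 (Igf2r, minus strand). Capitals mark CG pairs, the dinucleotides that are dense in CpG islands. Each sequence is given 5′ to 3′.
Igfbp7: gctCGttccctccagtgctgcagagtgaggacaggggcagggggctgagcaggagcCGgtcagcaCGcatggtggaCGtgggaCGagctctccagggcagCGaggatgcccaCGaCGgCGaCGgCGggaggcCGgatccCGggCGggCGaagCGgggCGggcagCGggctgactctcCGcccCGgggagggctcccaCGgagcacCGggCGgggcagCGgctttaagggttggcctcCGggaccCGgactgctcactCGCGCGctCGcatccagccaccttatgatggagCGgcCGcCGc
Igfbp6: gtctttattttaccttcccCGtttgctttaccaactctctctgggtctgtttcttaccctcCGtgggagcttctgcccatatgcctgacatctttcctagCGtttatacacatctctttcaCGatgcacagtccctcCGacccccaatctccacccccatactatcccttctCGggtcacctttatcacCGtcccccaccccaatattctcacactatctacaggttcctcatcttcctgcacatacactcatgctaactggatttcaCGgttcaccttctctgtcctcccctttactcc
Igfbp3: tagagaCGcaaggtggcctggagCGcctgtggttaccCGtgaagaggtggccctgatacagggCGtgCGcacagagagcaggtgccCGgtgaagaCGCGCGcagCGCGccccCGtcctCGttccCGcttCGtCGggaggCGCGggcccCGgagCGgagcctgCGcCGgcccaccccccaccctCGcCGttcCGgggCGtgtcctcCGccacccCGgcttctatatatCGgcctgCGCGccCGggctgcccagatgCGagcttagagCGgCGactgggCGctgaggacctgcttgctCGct
Igf1: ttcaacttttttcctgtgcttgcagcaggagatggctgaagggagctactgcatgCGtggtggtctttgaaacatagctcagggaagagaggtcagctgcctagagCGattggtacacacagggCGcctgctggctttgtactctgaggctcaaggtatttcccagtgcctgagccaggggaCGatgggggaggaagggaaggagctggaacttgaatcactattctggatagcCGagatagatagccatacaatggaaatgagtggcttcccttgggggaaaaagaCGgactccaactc
Igf2r: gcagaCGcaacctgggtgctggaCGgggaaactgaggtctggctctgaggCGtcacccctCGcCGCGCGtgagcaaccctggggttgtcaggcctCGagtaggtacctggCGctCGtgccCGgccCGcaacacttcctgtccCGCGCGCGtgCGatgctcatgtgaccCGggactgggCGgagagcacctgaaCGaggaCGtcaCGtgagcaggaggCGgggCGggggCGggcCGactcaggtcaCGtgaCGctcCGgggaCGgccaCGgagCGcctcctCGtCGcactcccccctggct
The Igfbp7 and Igfbp3 windows held 33 and 37 CG pairs, and that of Igfbp6 held 8. Igf2r held 34 and Igf1 held 6. The median over 32851 windows of all genes was 7 CG pairs, so Igfbp6 and Igf1 lay near it. The Igf1 window lies downstream of 87858265, where the annotated gene begins, so its count is that of a start inside the gene. The Igfbp6 window ends at 102144235, upstream of 102144362, where that annotated gene begins. Its count and motif matches are therefore those of a start upstream of the annotated one. At least the 33 pairs of Igfbp7 were held by 8.56% of all windows. The GC box GGGCGG, read on both strands, was in the Igfbp7 and Igf2r windows and in 35.7% of all windows. TATAAA, also on both strands, was in the Igfbp6 window and in 13.6% of all windows. The forkhead motif GTAAACA was in none of these windows on either strand and in 3.65% of all windows. A match of letters is a description and not a site, and no match says only that these letters are not in the window. The letters TAAA occur in both TATAAA and GTAAACA.

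Igf1 (ENSMUSG00000020053, GRCm38 chromosome 10, 87858265 to 87937042, plus strand) was the ligand of higher level. It stood at 10.0, 12.2 and 12.1 FPKM in KO1, KO2 and KO3, against 17.5, 21.8, 19.9 and 19.2 FPKM in WT1 to WT4. The lowest WT library lay above the highest KO-labelled one, and the KO-labelled values were close to each other. Its mean in KO-labelled libraries was 0.582 times that in WT, a log2 difference of -0.73 (95% interval -0.98 to -0.49, SE 0.11), with a limma adjusted p of 0.00521. The call was kept in each alternative, with adjusted p between 0.00416 and 0.0272.

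Igf2 (ENSMUSG00000048583, chromosome 7, 142650766 to 142666816, minus strand), the imprinted fetal growth factor, was listed at low levels. It stood at 2.37, 0.761 and 1.30 FPKM in KO1, KO2 and KO3, against 0.292, 0.649, 0.291 and 0.222 FPKM in WT1 to WT4. Every KO-labelled library was above every WT library, but KO2 lay close to WT2. Its mean over the 7 libraries was under the minimum, so it was not tested in the fit described. With no filter on low values its log2 difference was 0.82 with a limma adjusted p of 0.0879. The long noncoding RNA H19, its imprinted neighbour 72.6 kb away, averaged 10.1 ± 1.43 FPKM in KO-labelled and 3.68 ± 2.55 FPKM in WT libraries and rose (log2 difference 1.37, SE 0.32, limma adjusted p = 0.0179). The H19 call was lost without KO1 (limma adjusted p = 0.0686), without KO3 (0.0505) and with no filter (0.0709). Exons of the antisense gene Igf2os and of the gene model Gm49394 overlap those of Igf2. Igf2os averaged 0.00336 FPKM in KO-labelled libraries and was listed at 0 in each WT library.

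Igf1r (ENSMUSG00000005533, chromosome 7, 67952827 to 68233668, plus strand), the signalling receptor, was among the most abundant members in both groups. It stood at 27.6, 61.8 and 41.0 FPKM in KO1, KO2 and KO3, against 44.9, 49.3, 54.6 and 66.9 FPKM in WT1 to WT4. KO2 lay within the WT range, whereas KO1 and KO3 lay below it. The log2 difference of -0.36 (95% interval -0.91 to 0.18) did not pass the test, with a limma adjusted p of 0.286. Without KO2 it was -0.65 and passed, with a limma adjusted p of 0.0458.

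Igf2r (ENSMUSG00000023830, chromosome 17, 12682406 to 12769664, minus strand), the clearance receptor, was lower in every KO-labelled library. It stood at 6.24, 11.5 and 9.66 FPKM in KO1, KO2 and KO3, against 12.7, 20.5, 16.8 and 15.5 FPKM in WT1 to WT4. The gap between the groups was narrow, between KO2 and WT1. The mean in KO-labelled libraries was 0.558 times that in WT, a log2 difference of -0.80 (95% interval -1.26 to -0.34, SE 0.20), with a limma adjusted p of 0.0239. The call was lost without WT2 (limma adjusted p = 0.0539), WT3 (0.0622), KO1 (0.0757) or KO3 (0.0522), with the length correction (0.0518) and with no filter (0.0829). Airn, the noncoding RNA that overlaps Igf2r and silences it on the paternal chromosome, averaged 2.20 ± 0.323 FPKM in KO-labelled and 2.56 ± 0.565 FPKM in WT libraries and was not called (limma adjusted p = 0.522). Airn is given although no rule selected it.

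The receptors were compared within each library, as ratios of FPKM. The ratio of Igf1r to Igf2r was 4.43, 5.36 and 4.24 in KO1, KO2 and KO3, against 3.53, 2.399, 3.26 and 4.31 in WT1 to WT4. KO3 lay below WT4, so the groups overlapped by that pair. The ratio of Igf1r to the insulin receptor gene Insr averaged 4.25 ± 0.561 in KO-labelled and 3.71 ± 0.691 in WT libraries, with overlapping values.

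Igfbp7 (ENSMUSG00000036256, chromosome 5, 77349240 to 77408041, minus strand), which encodes a secreted protein found around blood vessels, showed the largest log2 difference of the 9 tested members. It stood at 146, 76.9 and 99.4 FPKM in KO1, KO2 and KO3, against 33.0, 45.1, 24.0 and 20.01 FPKM in WT1 to WT4. The lowest KO-labelled library was well above the highest WT library. The mean in KO-labelled libraries was 3.52 times that in WT, a log2 difference of 1.80 (95% interval 1.15 to 2.44, SE 0.28), with a limma adjusted p of 0.00618. The call was kept in each alternative, with adjusted p between 0.00458 and 0.0329. An exon of Polr2b on the other strand overlaps Igfbp7, and the sources used here do not say that counting used strand. Polr2b was at 14.1 ± 1.52 FPKM in KO-labelled and 18.5 ± 0.717 FPKM in WT libraries.

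Igfbp6 (ENSMUSG00000023046, chromosome 15, 102144362 to 102149511, plus strand) encodes the binding protein that prefers IGF2. It stood at 53.3, 18.7 and 30.3 FPKM in KO1, KO2 and KO3, against 11.3, 14.3, 12.2 and 8.52 FPKM in WT1 to WT4. The WT values were close together, while KO1 was far above KO2. The mean in KO-labelled libraries was 2.94 times that in WT, a log2 difference of 1.38 (95% interval 0.70 to 2.06, SE 0.30), with a limma adjusted p of 0.0147. Without KO1 it was 1.0003 and still called, and it was lost only with no filter (limma adjusted p = 0.0617) among the alternatives.

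Igfbp3 (ENSMUSG00000020427, chromosome 11, 7206086 to 7213923, minus strand) encodes the main carrier of IGF1 in serum. It stood at 2.48, 2.12 and 2.53 FPKM in KO1, KO2 and KO3, against 0.902, 0.560, 0.631 and 0.8293 FPKM in WT1 to WT4. Each group was tight and the groups were well apart, at a low level. The log2(FPKM + 1) difference of 0.97 (95% interval 0.66 to 1.27) understates the ratio of means of 3.25, and it was 1.59 with a pseudocount of 0.1. Igfbp1, its neighbour 3.54 kb away on chromosome 11, stood at 0 to 0.0456 FPKM in KO-labelled and at 0 to 0.138 FPKM in WT libraries. Igfals, which encodes the acid-labile subunit of the serum carrier complex, averaged 0.253 ± 0.132 FPKM in KO-labelled and 0.192 ± 0.101 FPKM in WT libraries.

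Igfbp4 (ENSMUSG00000017493, chromosome 11, 99041244 to 99054392, plus strand), an inhibitory binding protein of the follicle, was not called. It stood at 17.6, 10.1 and 15.7 FPKM in KO1, KO2 and KO3, against 9.40, 12.7, 9.76 and 6.08 FPKM in WT1 to WT4. KO2 lay within the WT range and KO1 and KO3 above it. The log2 difference was 0.57 (95% interval 0.03 to 1.10, limma adjusted p = 0.108), and without KO2 it was 0.79 and passed (limma adjusted p = 0.0427).

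Igfbp2 and Igfbp5 lie tail to tail on chromosome 1, 5.46 kb apart, and neither was called. Igfbp2 (ENSMUSG00000039323, 72824503 to 72852474, plus strand) stood at 40.8, 28.5 and 32.1 FPKM in KO1, KO2 and KO3, against 33.6, 28.1, 25.03 and 21.9 FPKM in WT1 to WT4. Only KO1 lay above the WT range (log2 difference 0.31, 95% interval -0.06 to 0.68, limma adjusted p = 0.185). Igfbp5 (ENSMUSG00000026185, 72857932 to 72874884, minus strand), whose product binds matrix as well as IGFs, stood at 32.9, 26.2 and 33.8 FPKM in KO1, KO2 and KO3, against 33.2, 54.7, 40.9 and 26.3 FPKM in WT1 to WT4. The WT libraries spread widely and enclosed KO1 and KO3 (log2 difference -0.28, 95% interval -0.77 to 0.22, limma adjusted p = 0.367). These intervals hold differences of either sign, so they do not show that the pair was unaltered.

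**Figure D2:**
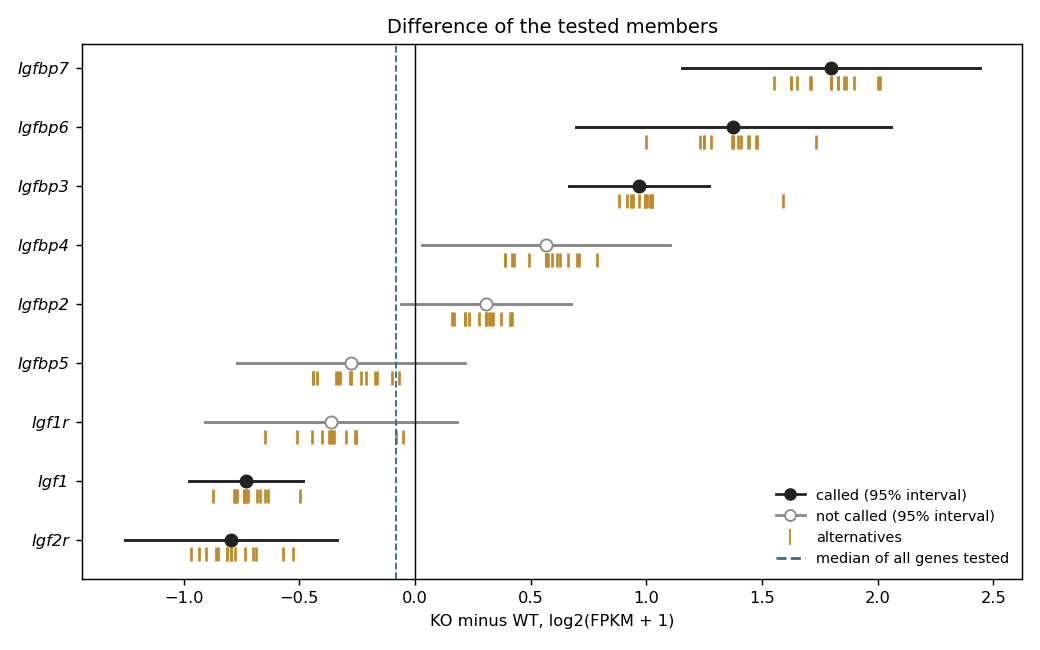
Difference of KO-labelled minus WT libraries in log2(FPKM + 1) for the 9 tested members, with 95% intervals from limma, the values under the alternatives as short ticks, and the median of all genes tested as a dashed line. The called members Igfbp7, Igfbp6 and Igfbp3 lay above 0 and Igf1 and Igf2r below it, the Igfbp4 interval also left out 0 although its adjusted p did not pass, and no member changed sign under any alternative run.

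Levels within the system were ordered by mean FPKM, with no test. In KO-labelled libraries Igfbp7 had the highest mean FPKM, followed by Igf1r at 43.5, Igfbp6 at 34.1, Igfbp2 at 33.8, Igfbp5 at 31.0, Igfbp4 at 14.5, Igf1 at 11.4, Igf2r at 9.14, Igfbp3 at 2.38 and Igf2 at 1.48 FPKM. In WT libraries Igf1r had the highest mean at 53.9, followed by Igfbp5 at 38.8, Igfbp7 at 30.5, Igfbp2 at 27.1, Igf1 at 19.6, Igf2r at 16.4, Igfbp6 at 11.6, Igfbp4 at 9.495, Igfbp3 at 0.731 and Igf2 at 0.364 FPKM. Most neighbours in these orders overlapped between libraries. The exceptions in KO-labelled libraries were Igfbp7 above Igf1r, Igfbp5 above Igfbp4 and Igf2r above Igfbp3, and in WT libraries Igfbp2 above Igf1 and Igfbp4 above Igfbp3.

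The binding proteins were then summed, since FPKM is a scale per length. The 6 genes together reached 293, 162 and 214 FPKM in KO1, KO2 and KO3, against 121, 156, 113 and 83.6 FPKM in WT1 to WT4. KO2 lay just above WT2, and KO1 was far above the rest. Igfbp7 made up 47.9 ± 1.72% of the sum in KO-labelled and 25.3 ± 3.42% in WT libraries. The share of Igfbp5 was 14.4 ± 2.73% in KO-labelled and 32.6 ± 4.06% in WT libraries. Without Igfbp7 the sum ran from 85.6 to 147 FPKM in KO-labelled and from 63.6 to 110 FPKM in WT libraries, which overlapped. Set against Igf1, the full sum was 13.3 to 29.3 times the Igf1 level in KO-labelled and 4.36 to 7.13 times in WT libraries. Without Igfbp7, the relative of low affinity, the sum was 7.03 to 14.7 times the Igf1 level in KO-labelled and 3.32 to 5.06 times in WT libraries. These sums are made of members and carry no test.

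**Figure D3:**
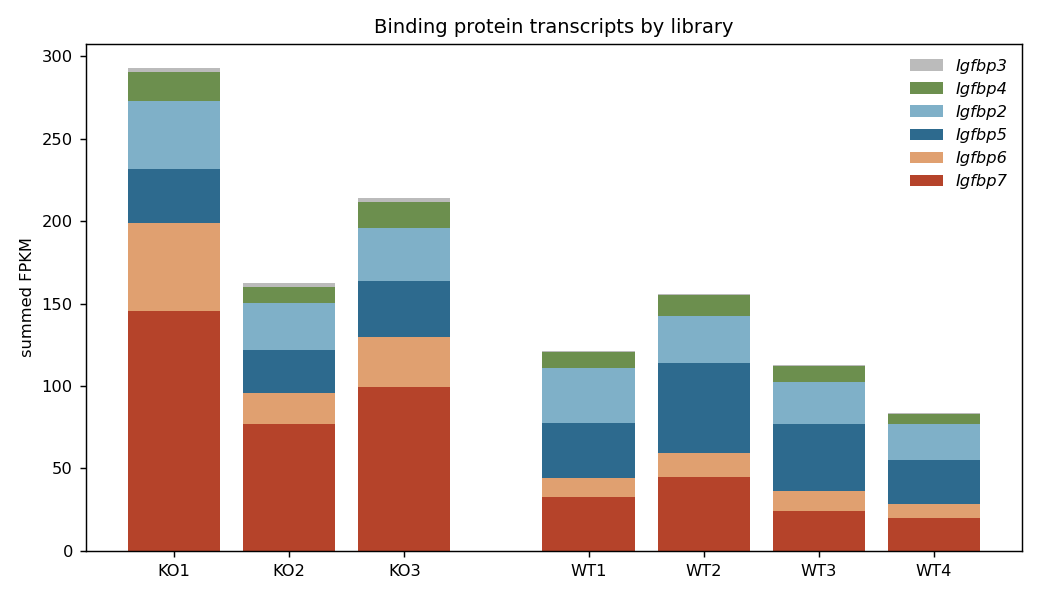
Summed FPKM of the 6 binding proteins (vertical axis, from 0) in each library, KO-labelled on the left and WT on the right, with a coloured segment per gene. Igfbp7 at the base of each bar was 46.5% to 49.8% of the sum in KO-labelled and 21.3% to 29.0% in WT libraries.

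Libraries of a group did not move alike across the system. KO1 held the highest value of all 7 libraries for 5 members (Igfbp7, Igfbp6, Igf2, Igfbp4 and Igfbp2) and the lowest for 3 (Igf1, Igf1r and Igf2r). Among KO-labelled libraries KO2 was lowest for 7 members. Among WT libraries WT2 was highest for 7 members and WT4 lowest for 6.

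Summed marker levels of several other ovarian cell types were higher in KO-labelled libraries, and their part in these results was not tested. Fewer cells of a type and less RNA per cell cannot be told apart in bulk samples. All tallies of marker genes are to be read beside 7.91% higher and 16.7% lower among all genes tested. No marker list was tested as a set. The summed level of 15 endothelial markers was 50.4 to 72.3 FPKM in KO-labelled and 12.2 to 26.9 FPKM in WT libraries. Of these, 10 were tested and 10 called higher, but 4 reached the minimum mean only through the KO-labelled libraries and had to differ, so the tally is a description. The 10 smooth muscle and pericyte markers summed to 135 to 360.5 FPKM in KO-labelled and 61.2 to 109 FPKM in WT libraries. Of 8 tested genes 5 were higher and 0 lower, and 2 of the 8 passed only through KO-labelled values. Acta2 and Tagln held the largest parts of that sum. They averaged 107 and 98.1 FPKM in KO-labelled and 47.2 and 24.2 FPKM in WT libraries. Mcam and Rgs5 were among the genes called higher, while Pdgfrb was not called (limma adjusted p = 0.493). Cspg4, not tested, was lower in every KO-labelled library, at 0.369 to 0.645 FPKM against 0.694 to 1.10 FPKM in WT libraries. Relative to the WT mean, the log2 of the summed smooth muscle and pericyte markers was 2.08, 0.67 and 1.32 in KO1, KO2 and KO3. Igfbp6 itself was 2.13, 0.67 and 1.34 in the same libraries. No rule selected this pair, and other lists were also highest in KO1 and lowest in KO2 among KO-labelled libraries. Surface epithelium markers were at 1.68, 0.67 and 1.30 there, and theca and interstitial markers at 1.45, 0.49 and 1.41. Macrophage markers summed to 75.1 to 160.3 FPKM in KO-labelled and 27.0 to 49.2 FPKM in WT libraries, with 12 of 13 tested genes higher and 0 lower, and 4 of the 13 passed only through KO-labelled values. Surface epithelium markers summed to 87.1 to 176 FPKM in KO-labelled and 45.2 to 62.0 FPKM in WT libraries, with 10 of 12 higher and 0 lower, and 1 of the 12 passed only in that way.

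Among the other lists the theca and stroma sums overlapped between the groups, while the granulosa, luteal and erythroid sums did not. Theca and interstitial markers summed to 106 to 206 FPKM in KO-labelled and 53.8 to 115 FPKM in WT libraries, with overlapping values and 2 higher and 1 lower of 8 tested genes. Cyp17a1, the theca androgen enzyme, averaged 124 FPKM in KO-labelled and 40.8 FPKM in WT libraries, and Insl3, a theca hormone chosen after its values were seen, averaged 8.75 FPKM in KO-labelled and 1.002 FPKM in WT libraries. The lower one was Ptch1, at 4.75 FPKM in KO-labelled and 11.7 FPKM in WT libraries. Stroma and fibroblast markers had overlapping sums, 271 to 322 FPKM in KO-labelled and 225 to 332 FPKM in WT libraries, but 5 of 13 were higher and 0 lower, with a median log2 difference of 0.98, and 1 of the 13 passed only through KO-labelled values. The gene with the largest part of that sum, Fbln1, averaged 128 FPKM in KO-labelled and 167 FPKM in WT libraries and was not called. Decorin, Dcn, chosen after its values were seen, averaged 30.2 FPKM in KO-labelled and 10.5 FPKM in WT libraries. Granulosa markers were higher in 0 and lower in 8 of 15, with sums of 3394 to 4836 FPKM in KO-labelled and 5364 to 7488 FPKM in WT libraries. The granulosa hormone subunit Inha stood at 2036 to 2643 FPKM in KO-labelled and at 2812 to 3742 FPKM in WT libraries. Inha was not called (limma adjusted p = 0.0799). Luteal markers summed to 2293 to 2594 FPKM in KO-labelled and 1007 to 1486 FPKM in WT libraries, with 3 of 8 tested genes higher and 0 lower. Erythroid markers summed to 3021 to 4771 FPKM in KO-labelled and 1051 to 2675 FPKM in WT libraries, with 5 of 5 tested genes higher. The sums of cumulus, oocyte and neutrophil markers overlapped between the groups. No gene found in the table for these lists was at 0 in every library.

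**Figure D4:**
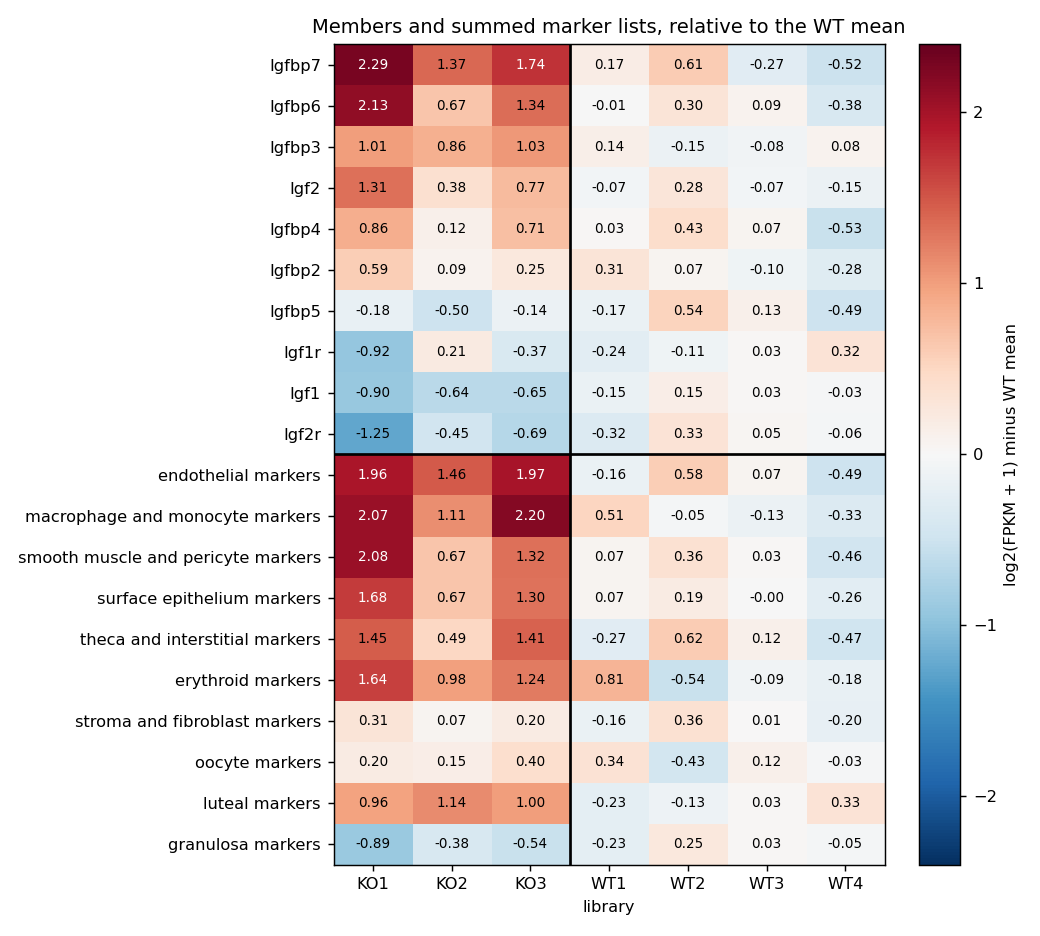
Each member (top) and each summed marker list (bottom) in every library as log2(FPKM + 1) minus its WT mean, red above and blue below it, KO-labelled libraries on the left. Igfbp7 was 2.29, 1.37 and 1.74 in KO1, KO2 and KO3, beside 1.96, 1.46 and 1.97 for the endothelial markers. Igf1 was -0.90, -0.64 and -0.65 beside -0.89, -0.38 and -0.54 for the granulosa markers. No rule selected these pairs, and macrophage markers were at 2.07, 1.11 and 2.20 in the KO-labelled libraries.

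Transcript length also followed the direction of the members. Igf1r (11409 bp), Igf2r (8887 bp), Igf1 (7052 bp) and Igfbp5 (6006 bp) have the longest annotated transcripts and had negative differences. The other 6, from Igf2 (4722 bp) to Igfbp6 (1112 bp), had positive ones. Among all tested genes with a transcript of 6006 bp or more the median log2 difference was -0.25, against -0.06 among shorter ones, and 2.10% were called higher and 29.1% lower, against 8.63% and 15.2%. After a correction for length in each library the log2 difference of Igf1 was -0.50 and still called (limma adjusted p = 0.00578). Those of Igf1r and Igfbp5 were then -0.05 and -0.07, and that of Igf2r was -0.53 and no longer called (limma adjusted p = 0.0518). Those of Igfbp7, Igfbp6 and Igfbp3 were 1.71, 1.28 and 1.02 and still called. Those of Igfbp4 and Igfbp2 were 0.70 and 0.23 and not called.

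Genes whose profile over the 7 libraries was most like that of a member were found by the root mean square difference of centred log2(FPKM + 1) values. For Igfbp7 these were Ramp2, Gbp2, Gimap6, S100a16 and Gsn, at 0.155 to 0.233, with log2 differences of 1.48 to 1.83. For Igf2r they were Gja1, Ogt, Edem3, Glg1 and Pxdn, at 0.0602 to 0.0777. For Igf1 they were Ncapd3, Abcc5, Obsl1, Dock6 and Trpm7, at 0.0276 to 0.0486. Ramp2, the nearest to Igfbp7, averaged 9.13 ± 2.81 FPKM in KO-labelled and 2.398 ± 1.12 FPKM in WT libraries. Gja1, the gap junction gene of granulosa cells and nearest to Igf2r, averaged 571 ± 132 FPKM in KO-labelled and 1003 ± 169 FPKM in WT libraries. Ncapd3, a condensin subunit nearest to Igf1, averaged 4.70 ± 0.615 FPKM in KO-labelled and 8.39 ± 0.937 FPKM in WT libraries. These matches share the difference between the groups, and they are not evidence beyond it.

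The wider pathway was read from 82 genes in 6 lists, of which 68 were tested, 6 were higher and 15 lower. That is 8.82% higher and 22.1% lower, against 7.91% and 16.7% over all genes tested, so the shares lay near the background. The tallies of single lists below are to be read beside the same 7.91% and 16.7%, and no list was tested as a set. The median log2 difference was -0.10 over the 68 genes and -0.08 over all genes tested. The number called fell to 7 without WT2, 4 without WT3, 10 without WT4, 2 without KO1 and 11 without KO3. With median-of-ratios scaling 10 were higher and 4 lower, so the balance of directions depended on scaling.

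Of the insulin receptor family and adaptors 1 of 13 tested genes rose and 3 fell. Lrp1, an endocytic receptor that also binds IGFBP complexes, averaged 28.4 ± 7.16 FPKM in KO-labelled and 59.7 ± 8.41 FPKM in WT libraries (log2 difference -1.07, SE 0.18, limma adjusted p = 0.00698). Irs1, the docking protein downstream of the IGF1 receptor, averaged 4.39 ± 0.930 FPKM in KO-labelled and 7.19 ± 0.751 FPKM in WT libraries (log2 difference -0.61, limma adjusted p = 0.0167). The guanine nucleotide exchange factor Sos2 fell as well (log2 difference -0.53), but its call was lost in 10 of 15 alternatives. These included leaving out WT2, WT3, WT4, KO1 or KO3, the length correction (limma adjusted p = 0.124) and median-of-ratios scaling (0.0876). The rise was Grb10, an adaptor that dampens the receptor, at 7.77 ± 1.37 FPKM in KO-labelled and 5.08 ± 0.492 FPKM in WT libraries (log2 difference 0.52, limma adjusted p = 0.0208). The Lrp1 call was kept in all 15 alternatives, that of Irs1 was lost in 3 (without WT3 or KO1 and with no filter), and that of Grb10 in 4 (also with the replicate block, limma adjusted p = 0.0563). Insr, looked up after its value was seen, had a log2 difference of -0.53 and was not called (limma adjusted p = 0.0942).

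Of the PI3K, AKT and mTOR arm 0 of 24 tested genes rose and 6 fell, each by less than 2-fold, beside 16.7% of all genes tested that were lower. With median-of-ratios scaling only 4 genes of the whole pathway were lower. Tsc1, a brake on mTOR, averaged 4.40 ± 0.521 FPKM in KO-labelled and 6.59 ± 0.556 FPKM in WT libraries (log2 difference -0.49). The PI3K regulatory subunit Pik3r2 had a log2 difference of -0.44, and the kinase Mtor one of -0.38. Mtor lost its call in 10 of 15 alternatives, among them leaving out WT2, WT3, WT4 or any KO-labelled library and the length correction, where its log2 difference was -0.12 (limma adjusted p = 0.295). Pik3r2 lost its call in 5 (without WT2, WT3, KO1 or KO2 and with no filter) and Tsc1 in 3 (without WT3 or KO1 and with the length correction). Akt1, given although no rule selected it, averaged 52.3 ± 4.34 FPKM in KO-labelled and 50.5 ± 1.44 FPKM in WT libraries (limma adjusted p = 0.718). Of 8 tested FOXO genes and targets 0 rose and 1 fell. That was Foxo1, the factor that AKT drives out of the nucleus, at 38.1 ± 8.62 FPKM in KO-labelled and 53.6 ± 5.53 FPKM in WT libraries (log2 difference -0.50, limma adjusted p = 0.0402). The Foxo1 call was lost in 9 of 15 alternatives, among them leaving out WT1, WT2, WT3, KO1 or KO2 and the replicate block (limma adjusted p = 0.0597). With the length correction its log2 difference was -0.23 (limma adjusted p = 0.25).

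Of 8 growth hormone axis genes 3 rose and 2 fell. The suppressors of cytokine signalling Socs3 and Cish rose, Socs3 to 39.4 ± 14.1 FPKM in KO-labelled, against 15.1 ± 5.68 FPKM in WT libraries (log2 difference 1.33), and Cish to 7.51 ± 1.34 FPKM in KO-labelled, against 3.12 ± 0.655 FPKM in WT libraries (log2 difference 1.05). The kinase Jak2 rose with a log2 difference of 0.36. Stat5b and Socs2 fell, with log2 differences of -0.46 and -0.45. Socs2 lost its call in 11 of 15 alternatives, among them leaving out any library but WT1 and the replicate block (limma adjusted p = 0.0601). Jak2 lost it in 8 (without WT2, WT3, WT4, KO1 or KO3 among them) and Stat5b in 7 (without WT2, WT3, KO1 or KO2 among them). Socs3 lost it in 2 (without KO1 and with no filter), and Cish kept it in all 14 in which it was tested. Ghr, the growth hormone receptor, looked up after its value was seen, was at 15.4 ± 1.31 FPKM in KO-labelled and 14.2 ± 0.855 FPKM in WT libraries and was not called (limma adjusted p = 0.454).

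Of 7 tested genes for relatives and proteases of the binding proteins 0 rose and 1 fell. That was Htra1, a secreted protease that cleaves IGFBP5, at 298 ± 28.3 FPKM in KO-labelled and 394 ± 42.0 FPKM in WT libraries (log2 difference -0.40, SE 0.12, limma adjusted p = 0.0402). The Htra1 call was lost in 10 of 15 alternatives, among them leaving out any library but KO2, median-of-ratios scaling (limma adjusted p = 0.11) and the replicate block (0.065). Pappa, the metalloprotease that cleaves IGFBP4 and frees IGF1, averaged 10.3 ± 4.68 FPKM in KO-labelled and 16.2 ± 5.08 FPKM in WT libraries. It was not called (limma adjusted p = 0.168) and was chosen after its value was seen. Ins2, an insulin gene, and Igfbpl1 were listed at 0 in all 7 libraries. Of 8 tested imprinted growth regulators 2 rose, H19 and Mest, and 2 fell, Peg3 and Meg3. Mest averaged 8.36 ± 0.786 FPKM in KO-labelled and 6.22 ± 0.486 FPKM in WT libraries (log2 difference 0.37). Peg3 and Meg3 had log2 differences of -0.61 and -0.57. Meg3 lost its call in 11 of 15 alternatives, among them leaving out WT2, WT3, WT4, KO1 or KO3 and the length correction, where its log2 difference was -0.22 (limma adjusted p = 0.305). Peg3 lost it in 10 of the 14 in which it was tested (leaving out the same libraries among them) and Mest in 8 of 15 (the same libraries again).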

How the data were processed

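Poly(A) RNA from 7 granulosa cell libraries was sequenced with paired 150 bp reads after fragmentation to roughly 200 bp, using the NEBNext Ultra RNA chemistry, per the labels' protocols. The values deposited by the authors were taken as FPKM. No header or label names the unit, which was inferred from values that were not whole and from column sums of 372085 to 450102. The build mm10 and the tools HISAT2, HTSeq 0.12.4, Trimmomatic, FastQC, edgeR and DESeq2 are named, with no role or order, per the submitters' processing notes. Which step made the FPKM is not given in the sources used here. At most 15.8% to 22.7% of low values per library lay within 2% of a whole number of fragments at any depth tried, so counts were not recovered, the depth is unknown and no count test or counting interval is given. The summed FPKM of all genes was 421616 ± 25603 in KO-labelled and 379279 ± 8076 in WT libraries (two-sided exact permutation p = 0.0286, the smallest that 35 splits allow).

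KO minus WT was fitted here with limma 3.58.1 (R 4.3.3) with a mean-variance trend on log2(FPKM + 1), for genes averaging 1 FPKM or more. This scale understates changes of low genes. P-values were adjusted over all 13850 genes, and every interval is a 95% interval from that fit. Before adjustment 5542 genes had a p under 0.05. The fit was also run on simulated data with independent noise in each gene. Such data lack the shifts that genes of a library share, so that run is no measure of the calls given here. Coordinates and lengths, the longest transcript of a gene, are from GENCODE vM21 on GRCm38. That annotation held 42456 of 43339 Ensembl identifiers. All 10 members matched the RefSeq promoter table. Replicate numbers shared by KO and WT labels did not pair the libraries by any label.

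The members, gene lists and tests were chosen with earlier results of these data known. Named were all members, Ezh2, Igfbp1 and Igfals, up to 3 called genes in each direction from each pathway list, the 5 genes most like Igf1 and the members with the largest called rise and fall, and marker genes of highest mean. Others are said to have been chosen later. Alternatives were a pseudocount of 0.1, no filter or a minimum mean of 5 FPKM, 3 scalings, a length correction by lowess, a replicate block and each library left out. Cumulus markers were higher in 0 and lower in 1 of 5 tested genes, luteal in 3 and 0 of 8, erythroid in 5 and 0 of 5, oocyte in 1 and 0 of 10, and neutrophil in 0 and 0 of 1.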

Additional observations from a re-analysis of the deposited data

Results flagged for a closer look

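Igf2 in WT2 stood at 0.649 FPKM, while the other 3 WT libraries lay between 0.222 and 0.292 FPKM. The gap to the nearest of them was 0.837 of the range of the group. It was the 1 such value among 61 results examined, and chance flags about 1 in 20 groups of this size.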

How the results depend on the processing

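All 9 tested members kept the sign of their log2 difference under each alternative in which they were tested, and Igf1 and Igfbp7 also kept their calls. The number of members called was 3 with no filter on low values and 4 to 7 with a library left out. The number higher was 3 to 4 and the number lower 1 to 3 with a library left out, and the number lower was 1 with no filter and 1 with the length correction. Of the pathway genes 21 were called, against 3 with no filter (1 higher, 2 lower), 13 with upper-quartile scaling (6 lower) and 2 to 21 with a library left out, where 1 to 9 were higher and 1 to 13 lower. With median-of-ratios scaling and with the length correction 10 were higher and 4 lower. Over all genes 3410 were called, 1865 with no filter, 2022 without WT2, 1552 without WT3 and 1293 without KO1, and 1293 to 3369 with any library left out. Higher genes were 32.1% of these calls, 52.0% with median-of-ratios scaling, 44.4% with upper-quartile scaling, 17.7% when sums of FPKM were made equal and 54.0% with the length correction. Equal sums moved the median of all genes to -0.21 on the log2 scale, against -0.08 in the values as reported, and Igf1 at -0.87 and Igfbp7 at 1.65 there are to be read against that shift. Same-numbered KO-labelled and WT libraries shared only a number. Their deviations correlated at -0.11 to 0.19, and 1 KO-labelled library correlated best with its own number. With the replicate number as a block, 11 pathway genes (7 lower) and 2671 genes in all were called. That block and the fit without WT4 give the same log2 differences, so they are not separate checks of the size of a difference. Tallies over the alternatives count both. The causes were not tested. The unknown depth limits what can be said of Igf2, Igfbp1, Igfals and Igfbp3, the members and relatives of lowest FPKM.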
